A study of Mus musculus with 2 samples.

Results

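Levels of 8 genes of the tumour necrosis factor (TNF) receptor family were followed across the immune cells of MC38 tumours. They are 6 receptors, Tnfrsf4 (OX40), Tnfrsf18 (GITR), Tnfrsf9 (4-1BB), Cd27, Tnfrsf1b (TNFR2) and Cd40, and 2 ligands, Tnfsf4 (OX40 ligand) and Tnfsf9 (4-1BB ligand). They were taken by symbol from the 27998 genes of the count matrices, and all 8 were present in both. The libraries held viable CD45+ cells sorted from tumours of MC38, a mouse colon carcinoma line, grown intradermally at 4 sites in C57BL/6 mice (C57BL/6J in the growth notes). In the aPD1 library the tumours had been injected with antiPD-1 antibody at 200 µg per mouse per day, and in the Control library with an agent that the labels call only control. In both groups the tumours grew for 7 days before 3 days of treatment, and cells were prepared for 10x Genomics 3' sequencing on day 10. There was 1 library per condition, the labels do not give the number of mice in each, and so no difference between conditions has a replicate check and none carries a p-value.

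Costimulatory receptors of this family sit on lymphocytes and bind trimeric ligands carried mainly by antigen-presenting cells. Receptor clustering recruits TRAF adaptors and switches on the NF-kB pathways, which favours survival, division and cytokine release. In mouse tumours OX40, GITR and 4-1BB are best known from regulatory T cells, which carry them at high levels, and from recently activated effector T cells. CD40 works in the other direction: it is carried by antigen-presenting cells and receives its ligand, encoded by Cd40lg, from T cells.

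Barcodes with at least 1000 UMIs (unique molecular identifiers, each standing for a counted transcript) and at most 10% mitochondrial UMIs gave 3321 aPD1 cells and 1174 Control cells, with medians of 2763 and 3287 UMIs. The libraries shared 4 cell barcodes, against 5.29 for unrelated draws. Cells were put into 6 classes by UMIs of marker genes, none of them among the 8 genes: 183 aPD1 and 85 Control Foxp3 T cells, 102 aPD1 and 44 Control CD4 T cells without Foxp3, 1050 aPD1 and 71 Control CD8 T cells, 527 aPD1 and 312 Control NK cells, 210 aPD1 and 186 Control macrophages and 95 aPD1 and 66 Control dendritic cells. NK cells were not told apart from type 1 innate lymphoid cells. Levels are given as CPM, the UMIs of a gene per 1000000 UMIs of the class, and since only 3' ends were counted they are compared between classes and libraries rather than between genes. The T-cell marker list summed to between 3451 and 4460 CPM in the aPD1 T classes and 3479 to 4380 in the Control T classes. It summed to at most 46.9 in the other 3 classes of either library. The gates use the same genes, so these sums follow from the gates and are no check of the classes. The Foxp3 T class held RNA of other cells too: its Cd8a level was 48.4 CPM in aPD1 and 19.0 in Control, and in it the macrophage list (5 genes) summed to 33.5 and 72.1 CPM, the dendritic list (8 genes) to 50.3 and 45.5 and the epithelial list (Epcam, Krt8 and Krt18) to 20.5 and 45.5, with Krt8 at 0; the part of these in its levels was not tested. The CD4 T class held Ikzf2, a transcription factor of regulatory T cells, at 588 CPM in aPD1 and 760 in Control, against 1746 and 1837 in Foxp3 T cells, and the part of regulatory T cells in the levels of the CD4 T class was not tested. Free RNA, estimated from barcodes with 10 to 50 UMIs and from genes each class should lack, made up between 2.18% and 8.23% of the UMIs of the aPD1 classes, the highest in NK cells, and between 1.23% and 3.08% of those of the Control classes.

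Tnfrsf4 and Tnfrsf18 lie head to tail on the plus strand of chromosome 4, at chr4:156013843-156016612 and chr4:156026164-156028895 in GRCm38, with 9551 bases between them, and Tnfrsf9 lies at chr4:150914562-150946102 on the same strand. Their promoter windows, from 250 bases before to 50 after a RefSeq start (GRCm38.p6), are shown because these 3 receptors share most of their order across cell classes. They were searched on both strands for a loose form of the NF-kB site (3 G, any 5 bases, 2 C) that 50.8% of 32851 mouse promoter windows of this length contain; capitals mark matches.
Tnfrsf4, chr4:156013445-156013744, plus strand: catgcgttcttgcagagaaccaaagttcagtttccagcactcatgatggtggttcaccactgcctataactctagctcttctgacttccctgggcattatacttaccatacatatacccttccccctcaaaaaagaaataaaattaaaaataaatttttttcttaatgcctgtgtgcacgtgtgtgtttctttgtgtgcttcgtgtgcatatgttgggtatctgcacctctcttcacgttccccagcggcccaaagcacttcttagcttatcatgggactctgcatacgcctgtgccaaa
Tnfrsf18, chr4:156026072-156026371, plus strand: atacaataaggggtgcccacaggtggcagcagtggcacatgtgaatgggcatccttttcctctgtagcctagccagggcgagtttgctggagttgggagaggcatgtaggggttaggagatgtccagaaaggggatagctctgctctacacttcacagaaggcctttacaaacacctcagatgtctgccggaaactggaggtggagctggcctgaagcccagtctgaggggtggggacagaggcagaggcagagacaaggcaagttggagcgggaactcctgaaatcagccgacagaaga
Tnfrsf9, first start, chr4:150919905-150920204, plus strand: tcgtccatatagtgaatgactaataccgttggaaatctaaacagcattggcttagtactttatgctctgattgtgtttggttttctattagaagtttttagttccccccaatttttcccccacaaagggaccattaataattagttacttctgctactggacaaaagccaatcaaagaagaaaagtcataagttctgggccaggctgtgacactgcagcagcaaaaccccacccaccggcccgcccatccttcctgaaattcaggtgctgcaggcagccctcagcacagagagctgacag
Tnfrsf9, second start, chr4:150927749-150928048, plus strand: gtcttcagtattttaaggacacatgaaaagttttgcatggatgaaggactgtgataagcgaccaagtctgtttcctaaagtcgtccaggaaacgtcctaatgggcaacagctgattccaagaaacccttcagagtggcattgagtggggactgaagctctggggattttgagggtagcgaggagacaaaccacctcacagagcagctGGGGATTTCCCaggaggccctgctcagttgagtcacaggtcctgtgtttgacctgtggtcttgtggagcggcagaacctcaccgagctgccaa
The Tnfrsf4 and Tnfrsf18 windows and the first Tnfrsf9 window had no match. The second Tnfrsf9 window had 3 overlapping matches within a run of 11 bases. The windows of Cd27, on the minus strand of chromosome 6, and of Tnfrsf1b, on the minus strand of chromosome 4, each had 3 overlapping matches as well. No window was listed for Cd40, Tnfsf4 or Tnfsf9. With about as many windows matching among all promoters as not, a match is a description of these letters only.

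**Figure D1:**
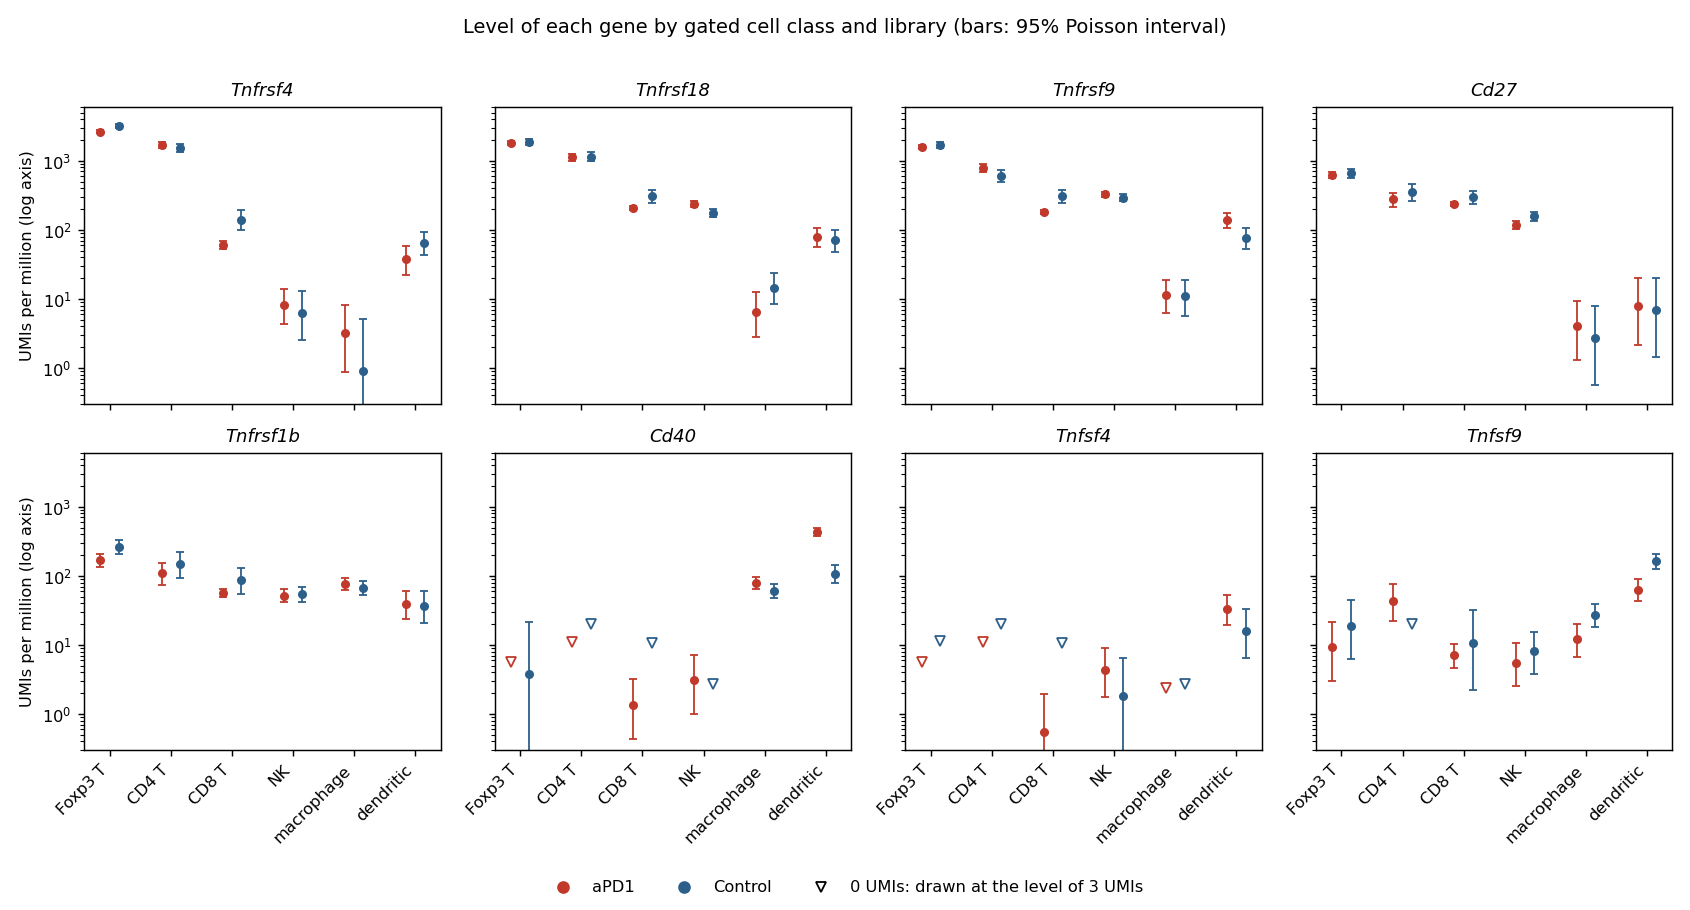
Level of each of the 8 genes, in CPM on a log axis, in the 6 gated classes of the aPD1 and Control libraries (1 library each); bars are 95% Poisson intervals and open marks 0 UMIs. Tnfrsf4, Tnfrsf18 and Tnfrsf9 are highest in Foxp3 T cells, at 1604 to 2634 in aPD1 and 1700 to 3203 in Control, while Cd40 is highest in dendritic cells.

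Tnfrsf4, the receptor for OX40 ligand, was highest in Foxp3 T cells and next in CD4 T cells, far above all other classes. Its level in Foxp3 T cells was 2634 CPM in aPD1 and 3203 in Control, and in CD4 T cells 1684 and 1514. In CD8 T cells it was 60.1 in aPD1 and 141 in Control, so that Foxp3 T cells stood 43.9-fold above CD8 T cells in aPD1 and 22.8-fold in Control. NK cells held 8.03 and 6.35 CPM and macrophages 3.22 and 0.91. These are not readable as expression in NK cells of aPD1, where the free RNA estimate was 24.9, nor in macrophages, where it was 6.62 in aPD1 and 3.81 in Control. Each of these estimates lay above the level itself, in NK cells of aPD1 also above its counting interval (4.27 to 13.7). Free RNA estimates are thus rough guides only. Intervals given here and below cover counting error only, and UMIs of the same cell are not independent, so they are too narrow wherever few cells hold most UMIs.

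Tnfrsf18, which encodes GITR, and Tnfrsf9, which encodes 4-1BB, were also highest in Foxp3 T cells but reached further into cytotoxic cells. The Tnfrsf18 level was 1802 CPM in aPD1 and 1882 in Control Foxp3 T cells, 1129 and 1144 in CD4 T cells, 205 and 306 in CD8 T cells and 236 and 176 in NK cells. Tnfrsf9 had 1604 and 1700 CPM in Foxp3 T cells, 784 and 605 in CD4 T cells, 182 and 306 in CD8 T cells and 328 and 292 in NK cells. Without the CD4 T cells that held an Ikzf2 or Il2ra UMI, the CD4 T level of Tnfrsf9 was 507 CPM in aPD1 and 247 in Control, the Control value below that of CD8 T cells. The order of CD8 T cells and NK cells thus differed between the libraries for both genes, with NK cells above CD8 T cells in aPD1 and below them in Control. For Tnfrsf9 the intervals of these neighbours were apart in aPD1 and overlapped in Control, and for Tnfrsf18 they overlapped in aPD1. Dendritic cells carried Tnfrsf9 at 138 CPM in aPD1 and 75.7 in Control, well above the free RNA level of 7.58 and 5.18.

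The 3 receptors were found together in the same Foxp3 T cells. With every cell thinned to 1000 UMIs to equalise depth, a Tnfrsf4 UMI was present in 83.6% of aPD1 and 87.1% of Control Foxp3 T cells, a Tnfrsf18 UMI in 77.6% and 82.4%, and a Tnfrsf9 UMI in 72.1% and 71.8%. All 3 were present in 99 of 183 aPD1 Foxp3 T cells (54.1%) and 49 of 85 Control Foxp3 T cells (57.6%), and none in 6.01% and 3.53%. Since each receptor was so frequent, overlap was near what the separate shares give: Tnfrsf4 and Tnfrsf18 were both present in 126 aPD1 and 63 Control Foxp3 T cells, against products of 118.7 and 60.9. In CD4 T cells all 3 were present in 23.5% in aPD1 and 13.6% in Control, and in CD8 T cells in 0.762% and 2.82%. The shares in NK cells, which held Tnfrsf18 and Tnfrsf9 but little Tnfrsf4, were 0.190% and 0.321%. In most CD8 T cells, 73.0% in aPD1 and 69.0% in Control, none of the 3 was detected at this depth.

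Cd27, the receptor for CD70 and a gene of naive and memory lymphocytes, spread more evenly over lymphocytes. Its level was 620 CPM in aPD1 and 656 in Control Foxp3 T cells, 276 and 350 in CD4 T cells, 238 and 299 in CD8 T cells and 118 and 157 in NK cells. Levels in CD4 and CD8 T cells overlapped in both libraries, and those in macrophages, 4.02 and 2.73, were near the free RNA level of 3.14 and 1.53. Without the CD4 T cells that held an Ikzf2 or Il2ra UMI, the CD4 T level of Cd27 was 121 CPM in aPD1 and 206 in Control. Both values, on 17 and 10 UMIs, lay below those of CD8 T cells. Tnfrsf1b, the TNF receptor of activated T cells and myeloid cells, varied least between classes among the receptors. It was measured at 169 CPM in aPD1 and 266 in Control Foxp3 T cells, 109 and 148 in CD4 T cells, 77.2 and 67.3 in macrophages, 56.2 and 86.5 in CD8 T cells, 51.9 and 54.4 in NK cells and 39.4 and 36.7 in dendritic cells. Counting intervals for Tnfrsf1b overlapped between every 2 neighbours in the order of classes of either library.

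Cd40 had the reverse pattern. In dendritic cells it stood at 431 CPM in aPD1 and 108 in Control, in macrophages at 78.8 and 60.9 and in monocytes, outside the 6 classes, at 72.9 and 38.4. The intervals of dendritic cells and macrophages were apart in both libraries. Among 1050 aPD1 and 71 Control CD8 T cells 5 and 0 Cd40 UMIs were counted, among NK cells 5 and 0, and among Foxp3 T cells 0 and 1.

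The 2 ligands were scarce. Tnfsf4 gave 17 UMIs in 95 aPD1 dendritic cells and 7 in 66 Control dendritic cells, all of them in cells with migratory markers, and none in Foxp3 T cells, CD4 T cells, macrophages or monocytes of either library. NK cells held 7 Tnfsf4 UMIs in aPD1 and 2 in Control. Tnfsf9 was also highest in dendritic cells, with 63.0 CPM in aPD1 and 163 in Control, and macrophages held 12.1 and 27.3. In CD4 T cells 12 Tnfsf9 UMIs were counted in aPD1 (43.5 CPM) and 0 in Control, where 3 UMIs would be 20.2 CPM.

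**Figure D2:**
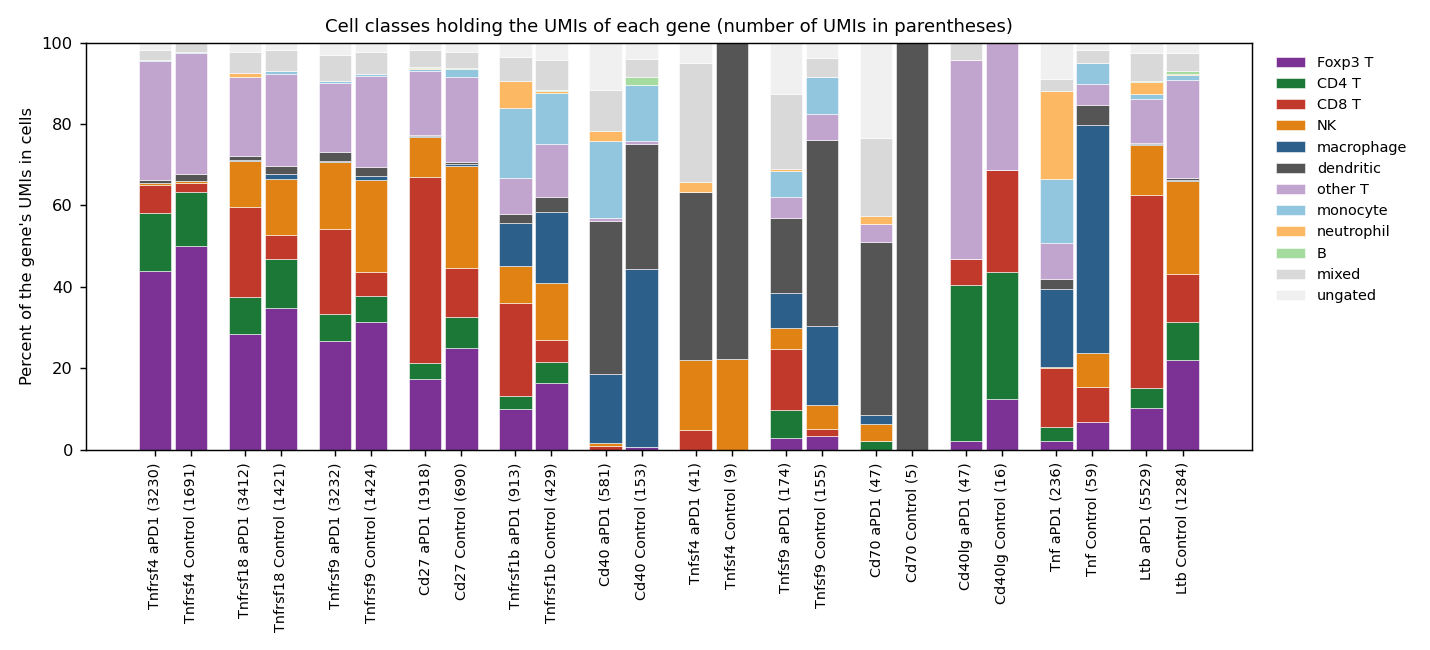
Share of the UMIs of each of the 8 genes and of 4 partners (percent) by the cell class that held them, with the aPD1 bar left of the Control bar for each gene and the number of UMIs in parentheses. Foxp3 T cells hold 43.8% of Tnfrsf4 UMIs in aPD1 and 49.9% in Control, and CD8 T cells hold 45.6% and 12.03% of Cd27 UMIs.

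The share of each gene's RNA that a class supplied depended on the number of cells as well as on the level in each cell. Foxp3 T cells held 43.8% of 3230 Tnfrsf4 UMIs in aPD1 and 49.9% of 1691 in Control, and T cells outside the 3 T classes a further 29.4% and 29.9%. CD8 T cells held 45.6% of Cd27 UMIs in aPD1 and 12.03% in Control, and 22.1% and 5.98% of Tnfrsf18 UMIs, although their level of both genes was lower in aPD1. The number of gated CD8 T cells, 1050 of 3321 in aPD1 and 71 of 1174 in Control, moved with these shares. Dendritic cells held 37.7% of 581 Cd40 UMIs in aPD1 and 30.7% of 153 in Control, and macrophages 16.9% and 43.8%.

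For the comparison of aPD1 with Control, a ratio was formed wherever a class held at least 20 UMIs of a gene over both libraries, and genes at or past 2-fold in either direction were counted. Too few UMIs were left for Cd40, Tnfsf4 and Tnfsf9 in Foxp3 T, CD4 T and NK cells, for Cd40 and Tnfsf4 in CD8 T cells, for Tnfrsf4, Cd27 and Tnfsf4 in macrophages and for Cd27 in dendritic cells. Foxp3 T cells had 5 of the 8 genes measured and 0 past 2-fold in either direction, where 6.26% of all 4204 genes measured in that class were higher in aPD1 by that much and 2.85% lower. Their log2 ratios had a median of -0.08, against 0.05 over all genes, and all 5 were below 0, although Tnfrsf18, Tnfrsf9 and Cd27 were above 0 as means of per-cell values (0.17, 0.10 and 0.09). Tnfrsf4 differed by -0.28 on the log2 scale (95% interval -0.41 to -0.16) and Tnfrsf1b by -0.65 (-1.11 to -0.18), both lower in aPD1. Tnfrsf18, Tnfrsf9 and Cd27 lay between -0.08 and -0.06, with intervals that included 0.

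CD4 T cells also had 5 genes measured and 0 past 2-fold, where 6.03% of 2622 genes were higher and 3.05% lower. Tnfrsf9 had the ratio farthest above 0, at 0.37 (0.01 to 0.74), Tnfrsf4 stood at 0.15 (-0.08 to 0.39) and Tnfrsf18 at -0.02 (-0.29 to 0.26); both of these changed sign as means of per-cell values. With the CD4 T cells that held an Ikzf2 or Il2ra UMI left out, 56 aPD1 and 16 Control cells remained and the Tnfrsf9 ratio was 1.04 (0.15 to 2.06), past 2-fold, on 71 and 12 UMIs. The 12 Control UMIs lay in 3 cells, 8 of them in 1, and without the richest cell of each library the ratio was 2.31 on 58 and 4 UMIs. With all 56 and 16 cells, Tnfrsf4 stood at -0.11 (-0.51 to 0.32), Tnfrsf18 at 0.29 (-0.25 to 0.87) and Cd27 at -0.76 (-1.97 to 0.53). Over the measured genes the median log2 ratio was -0.02 in CD4 T cells, 0.17 in NK cells and 0.15 in dendritic cells, against 0.04, 0.09 and 0.06 over all genes.

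**Figure D3:**
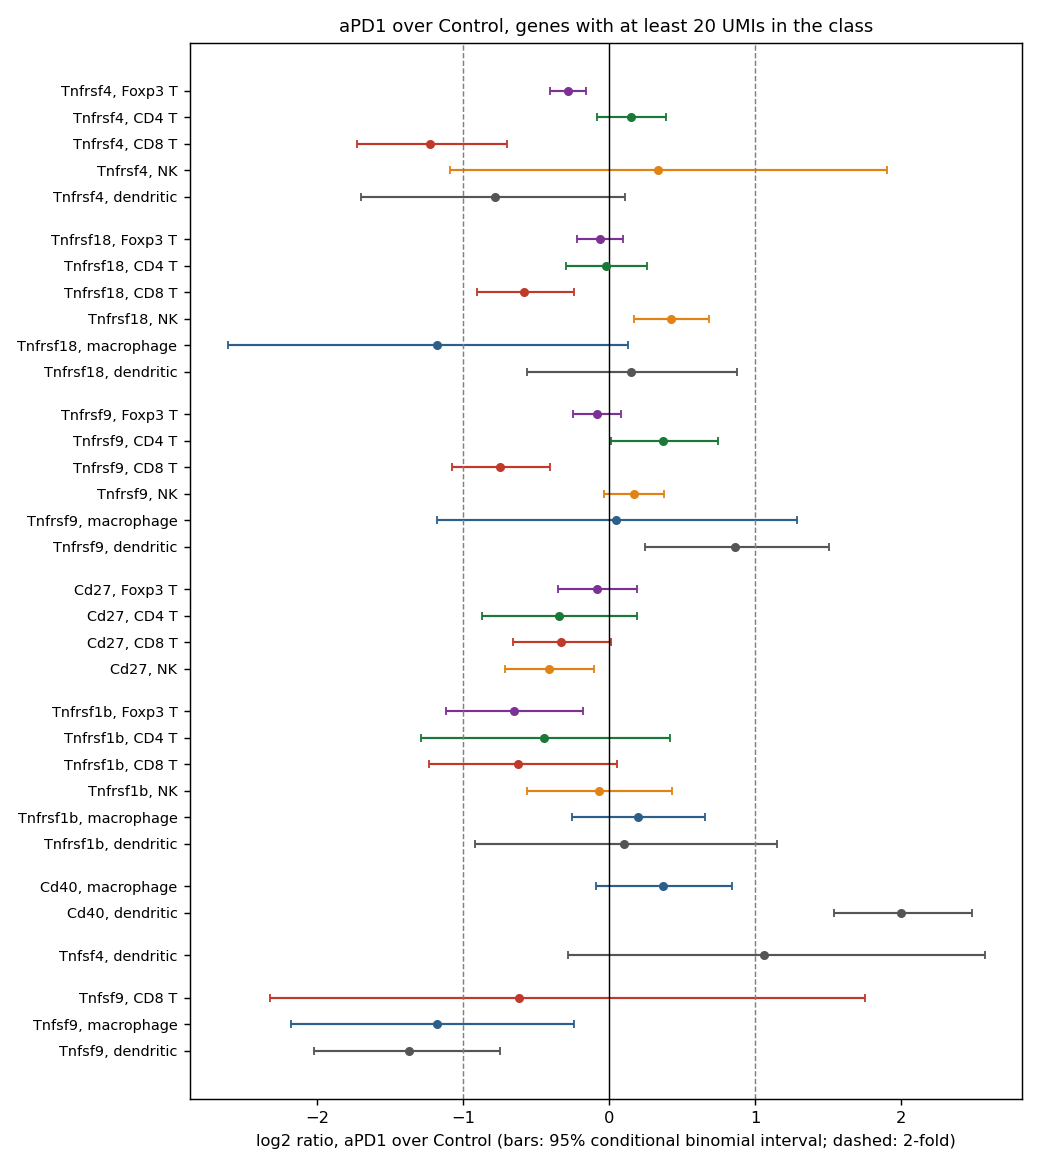
Log2 ratio of aPD1 over Control for each gene in each class with at least 20 UMIs over both libraries; points are the ratios, bars their 95% counting intervals and the lines mark 2-fold. Cd40 in dendritic cells stands at 2.00 and Tnfsf9 in dendritic cells at -1.37, while Tnfrsf4 in CD8 T cells lies at -1.23.

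In CD8 T cells all 6 genes measured had lower levels in aPD1 than in Control, with a median log2 ratio of -0.62 against 0.08 over all 7785 genes. Tnfrsf4 was the 1 of 6 past 2-fold, where 6.01% of all genes were lower by 2-fold or more and 9.74% were higher. Its level of 60.1 CPM in aPD1 and 141 in Control gave -1.23 (-1.72 to -0.70), and Tnfrsf9 gave -0.75 (-1.08 to -0.41), Tnfrsf18 -0.58 (-0.90 to -0.24), Tnfrsf1b -0.62 (-1.23 to 0.05) and Cd27 -0.33 (-0.66 to 0.01). Tnfrsf1b was at 0.44 in thinned cells, and Tnfsf9, at -0.61 on 26 and 3 UMIs, was at 0.83 without its richest cell in each library. Few cells carried the Control value: 16 of 71 CD8 T cells held the 39 Tnfrsf4 UMIs, 3 of them 20, while 94 of 1050 aPD1 cells held 221. Without the cell richest in Tnfrsf4 in each library the ratio was -0.98, and with cells thinned to 1000 UMIs it was -0.50, so that the 2-fold call ended in both. Ikzf2, which also marks other T-cell types, stood at 96.5 CPM in aPD1 and 220 in Control CD8 T cells, and the NK list (3 genes) summed to 90.5 CPM in aPD1 and 177 CPM in Control; their part in the ratio was not tested. In thinned cells the share of CD8 T cells with a Tnfrsf4 UMI was 3.81% in aPD1 and 4.23% in Control.

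**Figure D4:**
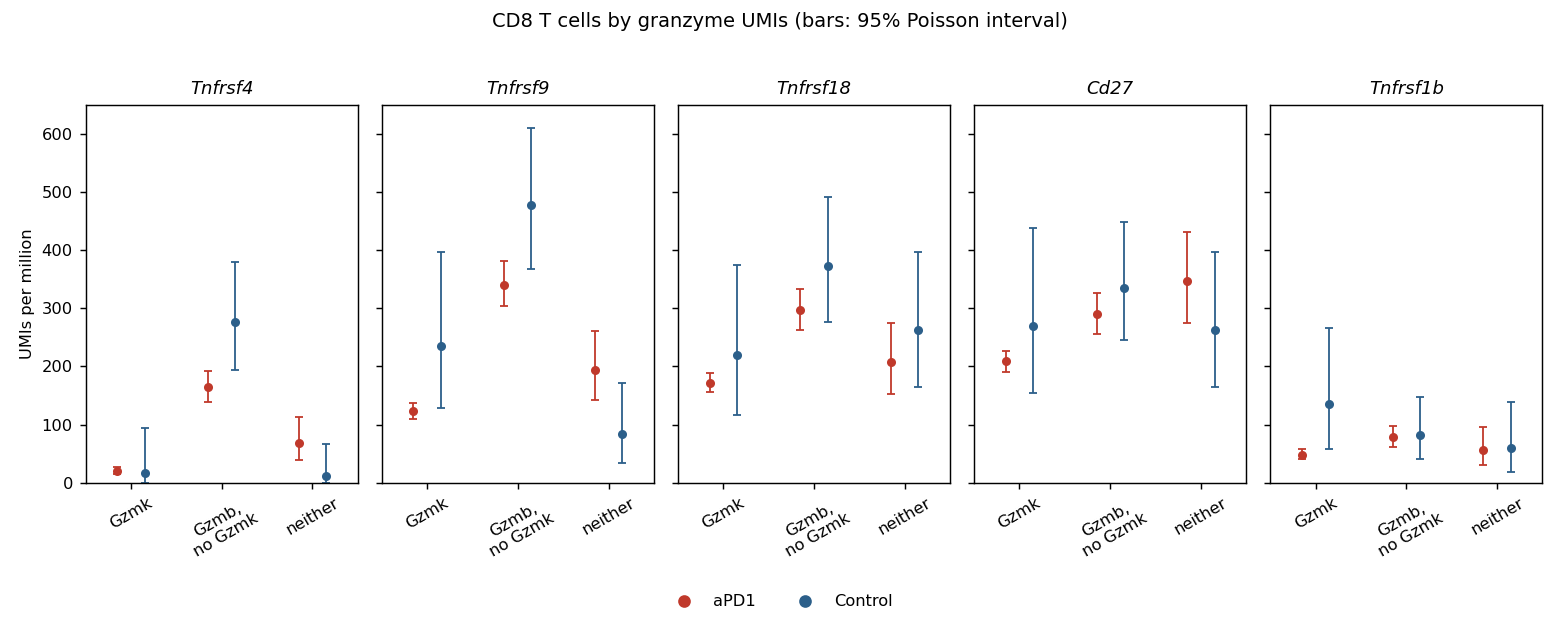
Levels of Tnfrsf4, Tnfrsf9, Tnfrsf18, Cd27 and Tnfrsf1b, in CPM, in CD8 T cells with a Gzmk UMI, with Gzmb but no Gzmk, and with neither; bars are 95% Poisson intervals. Tnfrsf4 in cells with Gzmb but no Gzmk stands at 164 in aPD1 and 276 in Control, above the 21.0 and 16.9 of cells with Gzmk.

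The CD8 T cells of the libraries differed in which granzymes they held, and the receptors differed between those subsets. Gzmk, a granzyme of early effector and memory CD8 T cells, was detected in 684 of 1050 aPD1 and 16 of 71 Control cells; Gzmb, a granzyme of cytotoxic effectors, was detected without Gzmk in 288 and 30. In aPD1 the Tnfrsf4 level was 164 CPM in cells with Gzmb but no Gzmk and 21.0 in cells with Gzmk, a log2 ratio of 2.97 (2.51 to 3.45), and in Control it was 276 and 16.9, a ratio of 4.03 (1.47 to 9.37) that rests on 1 UMI in the Gzmk cells. Tnfrsf9 stood at 341 and 123 in these subsets in aPD1 (1.47) and at 477 and 236 in Control (1.02). Tnfrsf18 and Cd27 differed less, by 0.79 and 0.47 in aPD1 and by 0.77 and 0.32 in Control. Within cells with Gzmb but no Gzmk the ratio of aPD1 over Control was -0.75 (-1.27 to -0.19) for Tnfrsf4, -0.49 (-0.88 to -0.08) for Tnfrsf9 and -0.33 (-0.77 to 0.13) for Tnfrsf18. Without the richest cell of each library these were -0.57 (-1.17 to 0.09), -0.30 (-0.74 to 0.16) and -0.15 (-0.63 to 0.35). In cells with neither granzyme, Tnfrsf9 ran the other way, at 195 CPM in aPD1 and 83.3 in Control, or 1.22 (0.06 to 2.62), on 45 and 7 UMIs, and 2.09 without the richest cells, on 37 and 3.

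Receptors also varied with other states of the T cells. Among CD8 T cells, those with a UMI of Pdcd1, the gene of PD-1, had 237 Tnfrsf9 CPM in aPD1 against 150 in the others, and in Control 436 against 187. Tnfrsf4 differed by 0.70 on the log2 scale between the same cells in aPD1 and by -0.10 in Control. Cycling Foxp3 T cells, 23 in aPD1 and 11 in Control, had lower CPM of all 3 regulatory receptors. Tnfrsf9 stood at 939 CPM against 1777 in the other Foxp3 T cells in aPD1 and at 1099 against 1796 in Control. Tnfrsf4 stood at 1905 against 2823 and at 2143 against 3372. Median UMIs of cycling and other Foxp3 T cells were 4027 and 2264.5 in aPD1 and 3092 and 2948.5 in Control. A lower CPM is thus a lower share of the RNA counted, and receptor UMIs per cell were not compared. In cycling CD8 T cells Cd27 was at 126 against 274 CPM in aPD1, while Tnfrsf9 was at 234 against 166. The Control library held only 6 cycling CD8 T cells.

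NK cells had 5 genes measured and 0 past 2-fold, where 3.42% of 7047 genes were higher and 1.62% lower. Tnfrsf18 had the ratio farthest above 0, at 0.43 (0.17 to 0.68), and Cd27 the one farthest below, at -0.41 (-0.72 to -0.11), while Tnfrsf9 stood at 0.17 (-0.03 to 0.37). Free RNA supplied an estimated 8.23% of NK UMIs in aPD1 and 3.08% in Control, which would give 19.4 Tnfrsf18 CPM in aPD1; its part in these ratios was not tested beyond the alternative that subtracts it. Within NK cells, those with a UMI of Gzmc, Gzmd, Gzme, Gzmf or Gzmg had more Tnfrsf9, 417 CPM against 231 in the others in aPD1 and 369 against 232 in Control. They had less Cd27, 78.9 against 161 in aPD1 and 102 against 200 in Control. Tnfrsf18 differed little between them, by -0.09 and -0.15 on the log2 scale.

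Among the 6 classes, the ratio of aPD1 over Control farthest from 0 was that of Cd40 in dendritic cells. Of 7 measured, 2 were at least 2-fold higher in aPD1, Cd40 and Tnfsf4, where 5.86% of 4320 genes were, and 1 was at least 2-fold lower, Tnfsf9, where 3.36% were. Cd40, through which T-cell help licenses dendritic cells, had 219 UMIs in aPD1 and 47 in Control, a log2 ratio of 2.00 (1.54 to 2.49), or 4.00-fold. It was detected in 48 of 95 aPD1 and 21 of 66 Control dendritic cells (50.5% and 31.8%), and after thinning in 21.1% and 10.6%, while among CD8 T cells, which should lack it, the thinned share was 0.0952% in aPD1 and 0 UMIs were counted in Control, where 3 UMIs would be 10.8 CPM. The richest cell held 22 of 219 UMIs in aPD1 and 7 of 47 in Control, and without these cells the ratio was 2.07. The 3 richest cells held 59 UMIs in aPD1 and 18 in Control. In Control dendritic cells with migratory markers, 3 cells held 18 of 33.

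**Figure D5:**
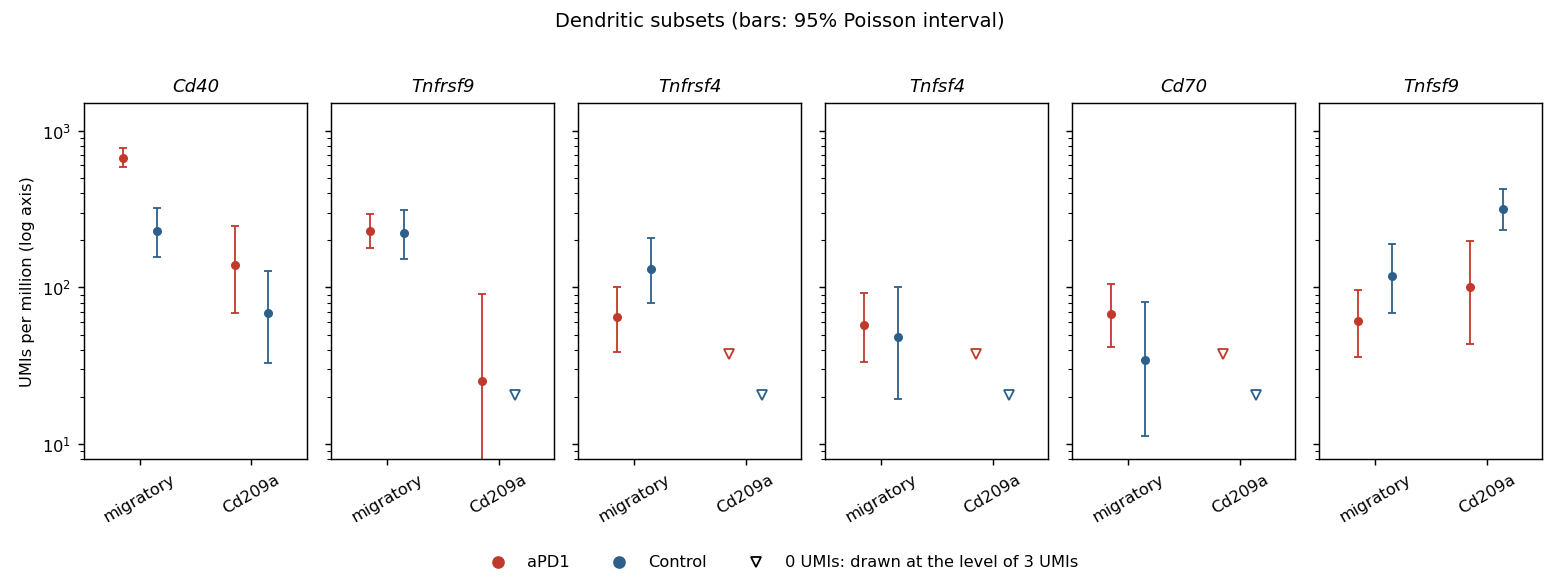
Levels in CPM, on a log axis, in dendritic cells with migratory markers (59 aPD1 and 25 Control cells) and in those with Cd209a (17 and 23), for 5 of the 8 genes and Cd70; bars are 95% Poisson intervals and triangles mark 0 UMIs, drawn at the level of 3. Cd40 is higher in aPD1 in migratory cells, at 675 against 229 in Control, and Tnfsf9 is lower in aPD1 in Cd209a cells, at 100 against 317.

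The gated dendritic cells were 59 migratory cells in aPD1 and 25 in Control, marked by Ccr7, Fscn1, Ccl22 and genes that rise with them, and 17 and 23 cells with Cd209a, a gene of monocyte-related and conventional type 2 dendritic cells. Cd40 was higher in migratory cells of both libraries, by 2.29 over Cd209a cells in aPD1 and by 1.73 in Control on the log2 scale, so the makeup of the class moved with its level. Within migratory cells the level was 675 CPM in aPD1 and 229 in Control, a ratio of 1.56 (1.02 to 2.14), and within Cd209a cells 138 and 69.0, a ratio of 1.002 (-0.37 to 2.40) on 11 and 10 UMIs. Without the richest cell of each library the ratio was 1.69 in migratory cells and 1.60 in Cd209a cells, the second on 8 and 5 UMIs. Among all genes at 2-fold, 12.9% of 2425 were higher and 3.59% lower in migratory cells, and 5.48% of 1479 each way in Cd209a cells. The migratory markers were themselves higher in aPD1 migratory cells, Ccr7 at 3603 against 2488 CPM and Ccl22 at 2569 against 1102, and their part in the Cd40 ratio was not tested. Cells with Xcr1 or Clec9a, genes of conventional type 1 dendritic cells, numbered 11 in each library and held 0 Cd40 UMIs in aPD1 and 2 in Control.

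Tnfrsf9, Tnfsf4 and Tnfrsf4 lay mainly in the migratory cells. Over all dendritic cells Tnfrsf9 had a ratio of 0.87 (0.25 to 1.51), but within migratory cells it stood at 230 CPM in aPD1 and 222 in Control, a ratio of 0.06 (-0.57 to 0.71). Tnfsf4 had 57.6 CPM in migratory cells of aPD1 and 48.5 in those of Control, 0.25 (-1.10 to 1.76), and -0.49 (-2.14 to 1.28) without the richest cells. The 1.06 of Tnfsf4 over all dendritic cells (-0.28 to 2.57) rested on few cells: 3 of the 5 positive aPD1 cells held 15 of the 17 UMIs, and all 7 positive Control cells held 1 each, so that the share of positive cells, 5.26% in aPD1 and 10.6% in Control, ran against the level and gives no order. Divided by totals without ribosomal and mitochondrial genes, the ratio was 0.98, under 2-fold. Tnfrsf4 in migratory cells gave 19 UMIs in each library, or 64.4 CPM in aPD1 and 132 in Control. It was at 0 in the Cd209a cells of both libraries. Foxp3 was at 0 UMIs in migratory cells as in all other dendritic cells of both libraries. T cells without Foxp3 also held Tnfrsf4, however, and the T-cell marker list summed to 25.6 CPM in aPD1 and 11.5 in Control dendritic cells. The free RNA estimate was 9.94 Tnfrsf4 CPM in the aPD1 and 3.73 in the Control migratory cells. The part of T-cell RNA in the Tnfrsf4 level was not tested.

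Tnfsf9, which costimulates T cells through 4-1BB, was lower in aPD1 in the 3 myeloid classes with enough UMIs to compare. The ratio was -1.37 in dendritic cells (-2.02 to -0.75), -1.18 in macrophages (-2.18 to -0.24) on 15 and 30 UMIs, and -1.81 in monocytes (-3.10 to -0.57) on 11 and 14 UMIs. Outside the classes it was above 0, at 0.42 (-0.78 to 1.85) in cells that passed 2 gates, on 32 and 7 UMIs. In cells that passed no gate it was 0.74 (-0.61 to 2.33), on 22 and 6. In dendritic cells with Cd209a it was -1.66 (-2.95 to -0.56), from 100 CPM in aPD1 and 317 in Control, and in migratory cells -0.95 (-1.99 to 0.10). All 17 Control UMIs of the migratory cells lay in 3 cells, 12 of them in 1, and without the richest cell of each library that ratio turned to 0.33 (-1.25 to 2.17), while that of Cd209a cells was -1.59. In Control dendritic cells 3 of 15 positive cells held 41 of the 71 UMIs, and 17 aPD1 cells held 32. Without the richest cell of each library the ratio was -1.16 in dendritic cells and -1.18 in macrophages, both still past 2-fold. The macrophage ratio was -0.66 with gates raised by 1 UMI and -0.76 as a mean of per-cell values. Macrophages had 5 genes measured, with 2 lower by 2-fold or more, Tnfsf9 and Tnfrsf18, and 0 higher, where 3.26% of 6922 genes were lower and 4.06% higher. The Tnfrsf18 ratio of -1.18 (-2.61 to 0.13) came from 8 and 16 UMIs, or 6.43 and 14.6 CPM, and the free RNA estimate was 5.15 and 2.29. Cd40 in macrophages stood at 0.37 (-0.09 to 0.84).

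Partners of the 8 genes were measured alongside. Tnfsf18, the ligand of GITR, had 0 UMIs in all cells of both libraries, so it was not detectable at this depth, where 3 UMIs would be 0.249 CPM in aPD1 and 0.636 in Control. Cd70, the ligand of CD27, gave 20 UMIs in aPD1 dendritic cells and 5 in Control dendritic cells, all in migratory cells, where the level was 67.8 CPM in aPD1 and 34.7 in Control, a ratio of 0.97 (-0.49 to 2.74), against 1.78 (0.32 to 3.55) over all dendritic cells. Cd40lg, the ligand of CD40, stood at 65.3 CPM in aPD1 CD4 T cells and 33.6 in Control CD4 T cells, on 18 and 5 UMIs. Tnf, which binds TNFR2, was measured at 36.2 and 30.02 CPM in macrophages and at 24.5 and 5.49 in monocytes, the Control monocyte value resting on 3 UMIs. Lta gave 57 UMIs over all aPD1 cells and 8 over all Control cells. Ltb, whose product joins lymphotoxin complexes, stood at 1040 CPM in aPD1 and 1074 in Control Foxp3 T cells and at 414 and 267 in NK cells. Past 2-fold were 2 of 2 partners measured in dendritic cells, Cd70 and Ltb (1.44 on 19 and 6 UMIs), and 1 of 2 in macrophages, Ltb (1.91 on 17 and 4 UMIs), all higher in aPD1. Of all genes measured, 5.86% in dendritic cells and 4.06% in macrophages were higher by that much. In macrophages Ltb stood at only 13.7 CPM in aPD1 and 3.64 in Control, against 714 and 552 in CD8 T cells. The part of free RNA in the Ltb ratios of both myeloid classes was not tested.

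Other receptors and ligands of the family, 26 genes, were mostly too low to compare: 3 were measured in Foxp3 T cells, 2 in CD4 T cells, 8 in CD8 T cells, 10 in NK cells, 12 in macrophages and 6 in dendritic cells. Counts for this list and the next are to be read against all genes past 2-fold, of which higher and lower shares were 9.74% and 6.01% in CD8 T cells, 3.42% and 1.62% in NK cells, 4.06% and 3.26% in macrophages and 5.86% and 3.36% in dendritic cells. Of the list, 0 were past 2-fold in Foxp3 and CD4 T cells. In CD8 T cells 1 was higher in aPD1, Tnfrsf1a at 2.63 (0.11 to 7.95) with only 1 Control UMI, and 1 lower, Tnfrsf26 at -1.67 on 25 and 6 UMIs. In NK cells 2 of 10 were higher, Tnfsf11, which encodes RANK ligand, at 2.45 (0.95 to 4.41) on 32 and 4 UMIs, and the death receptor gene Fas at 1.77 (0.19 to 3.78) on 20 and 4. Macrophages had 2 of 12 lower, Tnfrsf23 at -1.35 on 8 and 18 UMIs and Tnfsf14 (LIGHT) at -1.07 on 7 and 13, and dendritic cells 1 of 6 higher, Fas, at 80.8 CPM in aPD1 and 36.7 in Control.

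Among 26 adaptor and NF-kB genes, which carry the signal of these receptors, most were within 2-fold. Foxp3 T cells had 0 of 20 past it. In dendritic cells 2 of 21 were higher, Nfkb2, which encodes the p100 precursor of the noncanonical pathway that CD40 feeds, at 132 CPM in aPD1 and 45.9 in Control (1.52), and Traf2 (1.37, on 18 and 6 UMIs). The 1 lower gene was Nfkbid, an atypical NF-kB inhibitor family gene, at 27.6 and 84.9 (-1.62). Within migratory cells Nfkb2 was the 1 of 16 past 2-fold, at 1.10. CD4 T cells had 3 of 15 higher, Nfkb2 at 1.85 (0.09 to 4.24, with 3 Control UMIs), Nfkbid at 1.11 on 24 and 6 UMIs and Rel at 1.003 on 26 and 7, and 1 lower, Birc3 at -1.42 on 9 and 13, where 6.03% of all genes were higher and 3.05% lower. In NK cells 3 of 26 were higher, with Ikbkg at 1.82 on 26 and 5 UMIs and Traf6 at 1.69 on 19 and 4, and in macrophages 1 of 25, Traf1 at 55.5 and 24.6 CPM (1.18). In CD8 T cells 2 of 26 were higher, Traf2 at 3.15 (0.65 to 8.47) and Map3k14 at 2.18 (-0.36 to 7.50) with 1 Control UMI each. There 1 was lower, Traf5 at -1.41 (-2.36 to -0.32) on 55 and 11 UMIs.

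Across the 12 points made by 6 classes and 2 libraries, the genes whose log2 levels ran most like each of the 8 were found among 4084 genes. The points share the libraries and their depth, so Pearson's r is given as a description only. Tnfrsf4 ran with Il2ra (r = 0.987), which encodes the high-affinity interleukin-2 receptor chain, and with Izumo1r (0.966), a folate receptor family gene of regulatory T cells. Tnfrsf18 and Tnfrsf9 ran with each other and with Gtpbp2 (0.980 for both pairs of Tnfrsf18, and 0.977 for Tnfrsf9 with Gtpbp2). Cd27 ran with the lymphocyte transcription factor genes Elf1 (0.990) and Ets1 (0.987) and with Cd2 (0.984), an adhesion receptor gene of T and NK cells. Tnfrsf1b was most like Cmtm7 (0.954). Cd40 ran with Mcemp1 (0.990) and Zmynd15 (0.989), Tnfsf4 with Il4i1 (0.976), a gene also used to mark the migratory subset, and Tnfsf9 with Rab8b (0.929) and the NF-kB gene Rel (0.919). Between the 8 genes themselves r reached from -0.883 for Cd27 with Cd40 to 0.980 for Tnfrsf18 with Tnfrsf9.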

How the data were processed

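The authors deposited 1 matrix of raw UMI counts per library (27998 genes, 737280 barcodes), made with Cell Ranger 2.1 on mm10, per the submitters' processing notes. The matrices held 13717817 UMIs in aPD1 and 5203415 in Control. Cells were gated by marker UMIs; cells passing 2 gates (4.25% in aPD1, 3.75% in Control) were set aside as mixed, and no doublet caller was run. UMIs of each class were summed within a library and given as CPM of that sum. Intervals are 95% exact Poisson for levels and conditional binomial for ratios, and cover counting error only. Ratios needed 20 UMIs over both libraries; against 0 UMIs a floor of 3 was used. Ratios were also run on simulated Poisson counts. These hold no clustering of UMIs within cells, so they are no check of interval width in these data. The 8 genes, the lists and gates were chosen with earlier results of these data known. Named list genes are at most 4 per class with the largest ratios past 2-fold, beside all partners, and the 3 genes most like each of the 8, by log2(level + 10), of which those with a stated role or the highest r are printed. Starts and promoters come from GENCODE M21 and RefSeq tables of GRCm38. Python 3.11.15, numpy 2.4.6, scipy 1.17.1, pandas 2.3.3 and matplotlib 3.10.9 were used.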

Additional observations from a re-analysis of the deposited data

Results flagged for a closer look

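For 2 receptors the ratio of aPD1 over Control pointed in opposite directions in different classes, each with an interval that excluded 0; the differences themselves were not tested. Tnfrsf18 stood at 0.43 in NK cells and at -0.58 in CD8 T cells on the log2 scale. Tnfrsf9 stood at 0.37 in CD4 T cells and at 0.87 in dendritic cells, against -0.75 in CD8 T cells. These are ratios of whole classes, whose makeup differed between the libraries. Within migratory dendritic cells the Tnfrsf9 ratio was 0.06 (-0.57 to 0.71). Among CD8 T cells it was -0.94 with Gzmk, -0.49 with Gzmb but no Gzmk and 1.22 with neither. Without the richest cell of each library these were -0.17 (-1.23 to 1.16, on 303 and 7 UMIs), -0.30 and 2.09.

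Signal also lay in cells outside the classes compared. Cd40 stood at 63.0 CPM in aPD1 cells that passed 2 gates and at 25.5 in Control cells of that kind, with 19 of the 59 aPD1 UMIs in 1 cell. Among cells that passed no gate Cd40 stood at 161 in aPD1 and 31.8 in Control, with 17 of 67 aPD1 UMIs in 1 cell, and Tnfrsf4 at 132 and 5.30, the Control value being 1 UMI.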

How the results depend on the processing

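No paired analysis was possible because there was 1 library per condition. Of 33 ratios of aPD1 over Control, 24 had the same sign under all alternatives counted. The count left out ratios within CD8 T cells split by granzyme or Pdcd1, and ratios without the richest cell of a subset. The number of the 8 genes past 2-fold kept within 1.5 times its value except as follows. With a floor of 10 UMIs in place of 20 it was 1 in place of 0 in Foxp3 T cells and 1 in place of 0 in CD4 T cells, and without Ikzf2 and Il2ra cells it was 1 in CD4 T cells. In CD8 T cells it was 0 in place of 1 with cells thinned to 1000 UMIs, and 0 without the cell richest in each gene, an alternative chosen after seeing the data. In macrophages it was 1 in place of 2 with 5% mitochondrial UMIs, with free RNA subtracted, as a mean of per-cell CPM and with gates raised by 1 UMI, and 0 in thinned cells. In dendritic cells with Xcr1 or Clec9a alone it was 0 in place of 3, where too few UMIs were left for ratios. Over the alternatives counted, Cd40 in dendritic cells ran between 1.002 and 2.15, Tnfsf9 in dendritic cells between -1.66 and -0.70 and Tnfrsf4 in CD8 T cells between -1.53 and -0.50. The causes were not tested. Without the richest cell of each library, Tnfsf9 in migratory dendritic cells turned to 0.33 in place of -0.95 and Tnfsf4 there to -0.49 in place of 0.25. Depth limits the genes with few UMIs, such as Tnfsf4 with 41 in aPD1 and 9 in Control. With 1 library per condition, no interval covers variation between mice, and the TRAF-binding motif search in the proteins was not run.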

Other observations

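T cells that fell in none of the 3 T classes, 309 in aPD1 and 129 in Control, carried the receptors too, although no free RNA level was estimated for them or for neutrophils. Tnfrsf4 stood at 1295 CPM in aPD1 and 1464 in Control, Tnfrsf18 at 893 and 925, Tnfrsf9 at 742 and 916 and Cd27 at 410 and 417. Tnfrsf1b, the receptor gene shared with myeloid cells, stood at 104 CPM in aPD1 monocytes and 98.8 in Control monocytes, and at 98.0 in 197 aPD1 neutrophils; only 7 Control neutrophils were gated, so no ratio is given for them. Neutrophils of aPD1 also held 31 Tnfrsf18 UMIs, or 51.5 CPM, against 1 UMI each of Tnfrsf4 and Tnfrsf9.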
